A study of Gallus gallus with 12 samples.

Results

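This account describes 49 genes of mitosis, the kinetochore and cytokinesis in the embryonic chicken heart. They were taken by gene symbol from a list of mitotic genes, and each was read from the probe set with the highest mean signal. The list was chosen with earlier results of these data known. Of the 49 genes, 44 were named on the array, out of 13009 genes named there under a single symbol. The other 5, AURKA, SPC24, NCAPH, CDCA8 and ESPL1, were not named there and are not analysed under these names. All 44 lay above the limit set for dim probe sets, a mean log2 signal of 6.31, as did 10276 genes in all, and all 44 also exceeded it on every array, so the limit removed none of them.

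Transcript levels were measured on 12 Affymetrix chicken genome arrays, each hybridised with biotin-labelled cRNA made from total RNA of embryonic hearts. The eggs came from 3 breeds, Tibetan, Shouguang and Dwarf Recessive White, the eggs of a breed being full sibs, and were incubated in hypoxia or in normoxia. The 6 groups were Tibetan hypoxia, Tibetan normoxia, Shouguang hypoxia, Shouguang normoxia, Dwarf Recessive White hypoxia and Dwarf Recessive White normoxia, with 2 arrays in each. The Tibetan chicken is a highland breed, and the comparisons ask how hypoxia during incubation affects the heart of its embryos beside those of the other breeds. How low the oxygen was, when in incubation the hearts were taken, which sex the embryos had and how many hearts made up a sample are not stated in the labels, and neither is whether replicate arrays came from separate embryos. The p-values below therefore speak only of the spread among these arrays, part of which may be technical. As the eggs of a breed were full sibs, breed and family cannot be told apart. Every difference between breeds given below is also a difference between families.

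As background, mitosis is started by the cyclin-dependent kinase CDK1 with its A and B cyclins, and by Polo-like and Aurora kinases. Condensins and topoisomerase II compact the chromosomes, the kinetochore ties each centromere to spindle microtubules, and the spindle checkpoint delays chromosome separation until every kinetochore is attached. Kinesin motors shape the spindle, and the centralspindlin complex with its partners then divides the cell. Most of these transcripts accumulate in late S, G2 and M phase, so their levels in a tissue follow the share of cells that are dividing. In the embryonic heart, cardiomyocytes themselves still divide, beside endothelial, epicardial and connective tissue cells.

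The labelled tissue could be checked against its own markers. Of 12 cardiomyocyte genes listed, 10 were named on the array, all above the dim limit, and their mean log2 signal per array was 14.24 to 14.77 in Tibetan and Shouguang hearts and 14.22 to 14.51 in Dwarf Recessive White hearts. On the linear scale, array medians ran from 133.9 to 154.6. The mean log2 level of W-linked probe sets, which come from a chromosome that only females carry, was 6.62 on Dwarf Recessive White normoxia array 1 and 8.18 to 9.54 on the other 11 arrays, so the arrays differed in their W-linked RNA.

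The mean log2 signals of the 44 mitotic genes ran from 7.24 for SPC25 to 12.90 for CCNB2. These levels belong to different probe sets and set no order among genes. The median standard deviation of a mitotic gene within a group was 0.17 on the log2 scale. The gene given here as CCNB2 is named CCNB1 in the array's table, and KIF4A is named KIF4B there; both were reached through older symbols. The gene named AURKB lies between CSTF1 and FAM210B in the chicken assembly GRCg7b, which in humans are the neighbours of AURKA, so which Aurora kinase its probe set reads is not settled here.

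Most mitotic genes had lower mean signals in hypoxia than in normoxia, but no single gene passed the test. Averaged over the 3 breeds, the hypoxia effect (hypoxia minus normoxia, log2) was below 0 for 40 of the 44 genes, with a median of -0.12 and a range of -0.41 to 0.05. Over all 10276 genes tested the median was -0.004, and 51.2% were below 0. The 4 mitotic genes above 0 were SPC25, CENPE, NCAPD3 and KIF20A, none of them by more than 0.05. All 44 genes were read on the same arrays, so a shift of a single array can move many of them together. The counts of genes given here and below are therefore not counts of independent observations. The shares of all genes set beside them are descriptive, and the counts themselves were not tested. In whole hearts, fewer dividing cells and less RNA per dividing cell cannot be told apart.

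With limma and Benjamini-Hochberg adjustment over all 23063 probe sets tested, 0 of the 44 genes passed an adjusted p of 0.05, where 0.0564% of probe sets did. At an unadjusted p under 0.05, 8 mitotic genes were lower and 0 higher, against 5.11% and 4.64% of all genes. These 8 were AURKB, KIF4A, CCNA2, TPX2, BUB1, CENPL, PLK1 and CENPK. The hypoxia mean was below the normoxia mean in all 3 breeds for 21 genes, in 2 breeds for 19 and in 1 breed for 4. Of all genes, 18.5% were lower in all 3 breeds and 32.9% in 2 breeds.

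**Figure D1:**
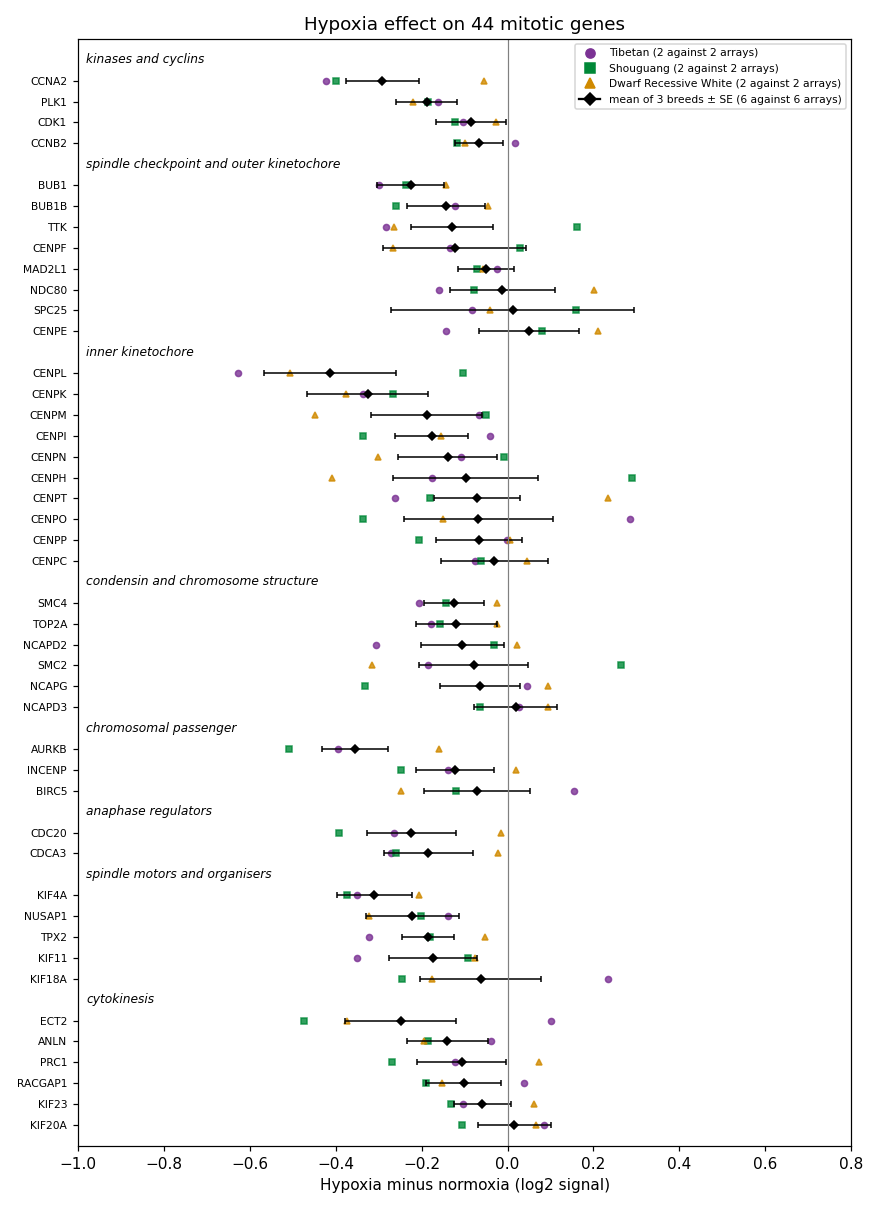
Hypoxia minus normoxia on the log2 scale (horizontal axis) for each of the 44 genes, grouped by role. Coloured symbols are the effects within Tibetan, Shouguang and Dwarf Recessive White hearts (2 against 2 arrays), and the black diamond with its bar is the mean over the 3 breeds ± SE. Diamonds lie left of 0 for 40 genes, down to -0.41 for CENPL.

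Among the kinases and cyclins of mitotic entry, all 4 measured genes had a mean hypoxia effect below 0, with a median of -0.14. CCNA2, which encodes the cyclin A2 that drives S phase and mitotic entry, had log2 signals of 10.54 and 10.60 in Tibetan hypoxia against 10.96 and 11.01 in Tibetan normoxia, and of 10.68 and 10.44 in Shouguang hypoxia against 11.06 and 10.86 in Shouguang normoxia. In Dwarf Recessive White hearts it had 11.04 and 11.32 in hypoxia against 11.35 and 11.12 in normoxia. The arrays of the 2 conditions were thus apart in Tibetan and in Shouguang hearts and overlapped in Dwarf Recessive White hearts. The mean CCNA2 effect was -0.29 ± 0.09 (SE, 6 arrays per condition; limma adjusted p = 0.313).

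PLK1, the Polo-like kinase of centrosome maturation and chromosome separation, had 11.94 and 11.76 in Tibetan hypoxia against 11.96 and 12.06 in normoxia, 11.59 and 11.83 in Shouguang hypoxia against 11.94 and 11.84 in normoxia, and 11.73 and 11.91 in Dwarf Recessive White hypoxia against 12.05 and 12.03 in normoxia. In every breed both hypoxia arrays lay below both normoxia arrays, with a mean effect of -0.19 ± 0.07 (limma adjusted p = 0.470). KIF4A was the only other mitotic gene with the arrays apart in this way in all 3 breeds, so 2 of 44 did so, against 1.82% of all genes. For CDK1 the mean effect was -0.08 ± 0.08, and for the B cyclin CCNB2 it was -0.07 ± 0.05.

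The spindle checkpoint and outer kinetochore genes had a median effect of -0.09, with 6 of 8 below 0. BUB1, a checkpoint kinase at the kinetochore, had 10.65 and 10.61 in Tibetan hypoxia against 10.92 and 10.93 in normoxia, 10.76 and 10.75 in Shouguang hypoxia against 11.10 and 10.88 in normoxia, and 10.77 and 11.01 in Dwarf Recessive White hypoxia against 11.11 and 10.95 in normoxia. Its hypoxia arrays lay below the normoxia arrays in Tibetan and Shouguang hearts, and a second BUB1 probe set gave nearly the same mean effect, -0.23 ± 0.11 beside -0.23 ± 0.08 (limma adjusted p = 0.419 for the first). The other checkpoint genes had mean effects of -0.14 ± 0.09 (BUB1B), -0.13 ± 0.10 (TTK, the kinase also called MPS1) and -0.05 ± 0.07 (MAD2L1). Those of the microtubule-binding NDC80 complex were -0.01 ± 0.12 for NDC80 and 0.01 ± 0.28 for SPC25, the gene with the widest spread between replicates.

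All 10 inner kinetochore genes, which encode the centromere-bound platform of the kinetochore, were below 0, with a median of -0.12. CENPL had 8.06 and 8.72 in Tibetan hypoxia against 8.98 and 9.05 in normoxia, 8.36 and 8.46 in Shouguang hypoxia against 8.21 and 8.82 in normoxia, and 8.91 and 9.39 in Dwarf Recessive White hypoxia against 9.63 and 9.69 in normoxia. Its arrays were apart in the Tibetan and Dwarf Recessive White hearts and overlapped in Shouguang hearts, and the mean effect was -0.41 ± 0.15 (limma adjusted p = 0.467), with -0.27 ± 0.21 at its second probe set. CENPK, a Z-linked gene, had -0.33 ± 0.14, and CENPM and CENPI had -0.19 ± 0.13 and -0.18 ± 0.09. The effects of CENPC, which binds the centromeric nucleosome, and of CENPT, which recruits the NDC80 complex, were -0.03 ± 0.13 and -0.07 ± 0.10.

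Chromosome structure genes had a median of -0.09, with 5 of 6 below 0 and 0 at an unadjusted p under 0.05. The condensin ATPase subunit SMC4 had the effect farthest from 0 in this group, -0.12 ± 0.07, and its log2 signals were 10.88 and 10.93 in Tibetan hypoxia against 11.04 and 11.19 in normoxia, 11.19 and 11.08 in Shouguang hypoxia against 11.35 and 11.21 in normoxia, and 11.29 and 11.46 in Dwarf Recessive White hypoxia against 11.42 and 11.38 in normoxia. The SMC4 arrays were apart in Tibetan and Shouguang hearts and overlapped in Dwarf Recessive White hearts. Its partner subunit SMC2 had -0.08 ± 0.13 and the topoisomerase TOP2A had -0.12 ± 0.09. In the chromosomal passenger complex, which corrects wrong attachments and guides cytokinesis, INCENP had -0.12 ± 0.09 and BIRC5 (survivin) had -0.07 ± 0.12.

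The smallest p among all 44 genes for the mean hypoxia effect belonged to the gene named AURKB, whose identity as Aurora kinase A or B is not settled here. It had 10.27 and 10.39 in Tibetan hypoxia against 10.70 and 10.75 in normoxia, 10.20 and 10.20 in Shouguang hypoxia against 10.75 and 10.66 in normoxia, and 10.40 and 10.49 in Dwarf Recessive White hypoxia against 10.72 and 10.49 in normoxia. All hypoxia arrays of Tibetan and Shouguang hearts lay below all normoxia arrays of the 3 breeds, while Dwarf Recessive White normoxia array 2 was level with hypoxia array 2 of its breed. The mean effect was -0.35 ± 0.08, 1.28-fold lower in hypoxia (limma adjusted p = 0.155).

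**Figure D2:**
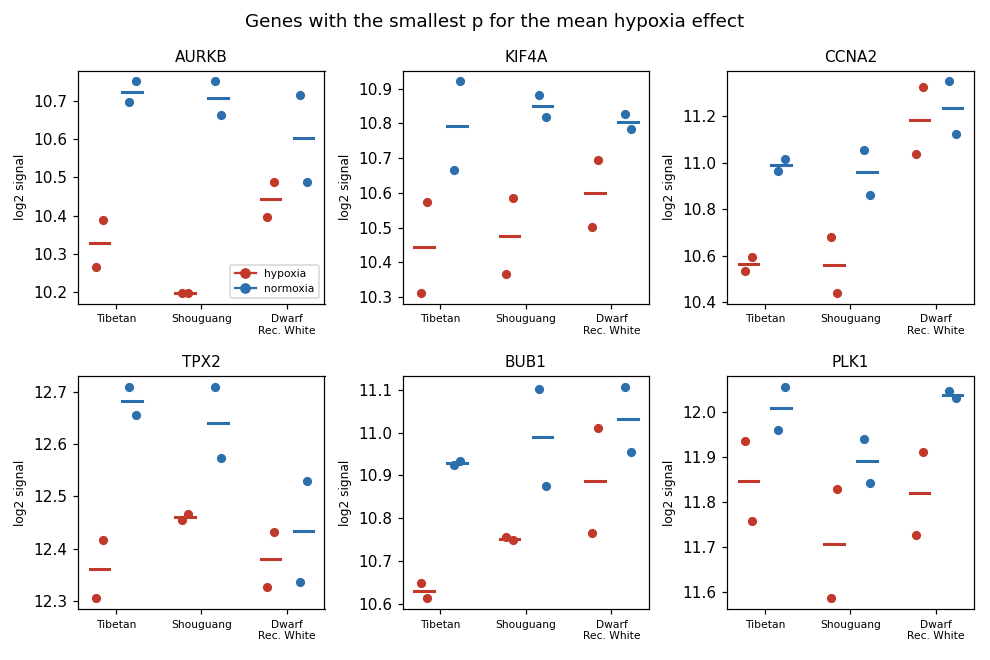
Log2 signal (vertical axis) on each of the 12 arrays for AURKB, KIF4A, CCNA2, TPX2, BUB1 and PLK1, by breed, with hypoxia in red and normoxia in blue; bars are means of 2 arrays. For AURKB both hypoxia arrays of Shouguang hearts are at 10.20 and the normoxia arrays at 10.75 and 10.66.

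The 2 regulators placed with anaphase had a median of -0.20. CDC20, the activator of the anaphase-promoting complex, had 10.99 and 10.82 in Tibetan hypoxia against 11.41 and 10.92 in normoxia, 10.87 and 10.65 in Shouguang hypoxia against 11.30 and 11.0015 in normoxia, and 11.19 and 11.46 in Dwarf Recessive White hypoxia against 11.42 and 11.26 in normoxia. Only the Shouguang arrays were apart, and the mean effect was -0.22 ± 0.10 (limma adjusted p = 0.599). CDCA3, an F-box-like trigger of mitotic entry, had -0.18 ± 0.10.

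All 5 spindle motor and organiser genes were below 0, with a median of -0.19. KIF4A, a chromokinesin that helps to condense chromosomes and to organise the central spindle, had 10.31 and 10.57 in Tibetan hypoxia against 10.67 and 10.92 in normoxia, 10.37 and 10.59 in Shouguang hypoxia against 10.88 and 10.82 in normoxia, and 10.50 and 10.69 in Dwarf Recessive White hypoxia against 10.83 and 10.78 in normoxia. The arrays of the 2 conditions were apart in every breed, and the mean effect was -0.31 ± 0.09 (limma adjusted p = 0.280), with -0.22 ± 0.08 and -0.16 ± 0.14 at its other probe sets.

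TPX2, which activates Aurora A and builds microtubules around chromosomes, had 12.31 and 12.42 in Tibetan hypoxia against 12.71 and 12.66 in normoxia, 12.45 and 12.47 in Shouguang hypoxia against 12.71 and 12.57 in normoxia, and 12.33 and 12.43 in Dwarf Recessive White hypoxia against 12.34 and 12.53 in normoxia. Its arrays overlapped only in Dwarf Recessive White hearts, and the mean effect was -0.19 ± 0.06 (limma adjusted p = 0.387), with -0.23 ± 0.09 and -0.16 ± 0.07 at the other probe sets. The bipolar spindle motor KIF11 had -0.17 ± 0.10, the microtubule bundler NUSAP1 -0.22 ± 0.11 and the plus-end motor KIF18A -0.06 ± 0.14.

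Of the 6 cytokinesis genes, 5 were below 0, with a median of -0.10 and 0 at an unadjusted p under 0.05. ECT2, the exchange factor that activates RhoA at the division plane, was farthest from 0 at -0.25 ± 0.13 (limma adjusted p = 0.646), with an effect of 0.10 ± 0.22 in Tibetan, -0.47 ± 0.22 in Shouguang and -0.37 ± 0.22 in Dwarf Recessive White hearts. The contractile ring scaffold ANLN had -0.14 ± 0.10 and the microtubule crosslinker PRC1 had -0.11 ± 0.10. The centralspindlin subunits RACGAP1 and KIF23 had -0.10 ± 0.09 and -0.06 ± 0.07, and the motor KIF20A had 0.02 ± 0.08.

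Other probe sets of the same genes gave a second reading. The 44 genes had 34 further tested probe sets, spread over 24 of them. In the mean hypoxia effect 27 of these 34 were below 0, with a median of -0.14, and 30 had the same sign as the first probe set of their gene. TTK was an exception, with -0.13 at its first and 0.02 and 0.21 at its other probe sets. Fewer had the same sign for the effect within a breed, 24 of 34 in Tibetan, 21 in Shouguang and 22 in Dwarf Recessive White hearts. For breed levels it was 16 for Tibetan minus Shouguang, 25 for Tibetan minus Dwarf Recessive White and 23 for Shouguang minus Dwarf Recessive White.

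Seen array by array, the mitotic genes were low on the hypoxia arrays of Tibetan and Shouguang hearts. Each gene was set against its own mean over the 12 arrays, and the median over the 44 genes was taken on every array. It was -0.13 and -0.08 in Tibetan hypoxia against -0.01 and 0.07 in Tibetan normoxia, -0.20 and -0.12 in Shouguang hypoxia against 0.04 and -0.02 in Shouguang normoxia, and -0.05 and 0.19 in Dwarf Recessive White hypoxia against 0.20 and 0.16 in Dwarf Recessive White normoxia. Dwarf Recessive White hypoxia array 1, at -0.05, was thus below the other arrays of its breed but close to Shouguang normoxia array 2, at -0.02. Dwarf Recessive White hypoxia array 2 was as high as the normoxia arrays of its breed. The same median over all genes lay between -0.0002 and 0.02 on every array.

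Of the 44 genes, 10 and 12 were above their own mean on the Tibetan hypoxia arrays, against 22 and 29 in Tibetan normoxia. In Shouguang hearts 6 and 11 were above it in hypoxia, against 23 and 20 in normoxia. In Dwarf Recessive White hearts 20 and 39 were above it in hypoxia, against 38 and 36 in normoxia. No gene had its highest signal of the 12 arrays on either array of Tibetan or Shouguang hypoxia or on Dwarf Recessive White hypoxia array 1, and 38 of the 44 had their lowest there. Dwarf Recessive White hypoxia array 2 went the other way, with the highest signal of 10 genes and the lowest of 0. Over all genes, each array held the highest signal of 6.44% to 11% and the lowest of 6.7% to 10.9%.

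**Figure D3:**
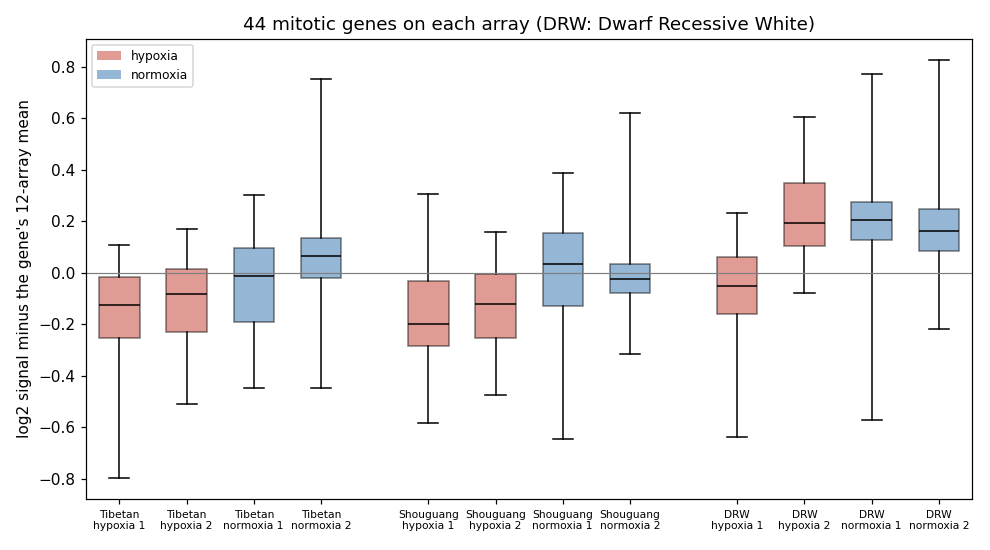
Log2 signal of each of the 44 genes minus its own mean over the 12 arrays (vertical axis), on every array, with hypoxia in red and normoxia in blue. Boxes span the quartiles with the median as a line, and whiskers reach the lowest and highest gene. Medians run from -0.20 on Shouguang hypoxia array 1 to 0.20 on Dwarf Recessive White normoxia array 1, and the hypoxia arrays of Dwarf Recessive White hearts stand apart from each other.

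Within Tibetan hearts the effect was below 0 for 35 of 44 genes, with a median of -0.14 against -0.01 over all genes. With limma 0 mitotic genes passed, where 0.0% of probe sets did, and 6 were lower and 0 higher at an unadjusted p under 0.05, against 2.46% and 2.22% of all genes. These were TPX2 (-0.32 ± 0.10), AURKB (-0.39 ± 0.13), CCNA2 (-0.42 ± 0.15), CENPL (-0.63 ± 0.27), KIF4A (-0.35 ± 0.15) and BUB1 (-0.30 ± 0.13), each with a limma adjusted p of 0.9997. Both hypoxia arrays lay below both normoxia arrays for 17 genes and above them for 2, against 17.7% and 15.8% of all genes.

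Within Shouguang hearts 38 of 44 genes were below 0, with a median of -0.17 against -0.01 over all genes. Again 0 passed with limma, where 0.0% of probe sets did, and 5 were lower and 0 higher at an unadjusted p under 0.05, against 3.08% and 3.14% of all genes. These were AURKB at -0.51 ± 0.13 (limma adjusted p = 0.719), CCNA2 at -0.40 ± 0.15, KIF4A at -0.37 ± 0.15, CDC20 at -0.39 ± 0.18 and CENPI at -0.34 ± 0.15. CENPI, a subunit of the inner kinetochore, had 9.45 and 9.45 in Shouguang hypoxia against 9.89 and 9.69 in Shouguang normoxia. Both hypoxia arrays lay below both normoxia arrays for 20 genes and above them for 3, against 18.6% and 15.6% of all genes.

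Within Dwarf Recessive White hearts 32 of 44 genes were below 0, with a median of -0.07 against 0.003 over all genes, and this count rested on the choice of array. Without hypoxia array 1 it was 20 of 44, with a median of 0.06, and without hypoxia array 2 it was 38 of 44, with a median of -0.19. With the mean W-linked level as a covariate it was 25 of 44, with a median of -0.03. With limma 0 mitotic genes passed, where 0.00434% of probe sets did, and 0 were past an unadjusted p of 0.05 in either direction, against 2.82% of all genes lower and 3.25% higher. Both hypoxia arrays lay below both normoxia arrays for 12 genes and above them for 0, against 18.1% and 18.9% of all genes.

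The smallest p within Dwarf Recessive White hearts was that of CENPM, a subunit of the inner kinetochore, with 8.50 and 9.08 in hypoxia against 9.25 and 9.23 in normoxia and an effect of -0.45 ± 0.22 (limma adjusted p = 0.821). It was followed by CENPL (-0.51 ± 0.27), PLK1 (-0.22 ± 0.12), NUSAP1 (-0.32 ± 0.19) and ECT2 (-0.37 ± 0.22), with limma adjusted p-values of 0.828 to 0.868. NUSAP1 had 9.96 and 10.38 in hypoxia against 10.61 and 10.37 in normoxia, and ECT2 had 8.86 and 8.98 in hypoxia against 9.18 and 9.41 in normoxia. For CENPM and ECT2 the arrays were apart, and for NUSAP1 hypoxia array 2 lay just above normoxia array 2.

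The hypoxia effect was not shown to differ between breeds for any mitotic gene. In the tests of the difference itself, limma called 0 of 44 genes in each of the 3 pairs of breeds, where 0.0% of probe sets were called in each pair, and 0 mitotic genes were past an unadjusted p of 0.05. Of all genes, 1.18% were lower and 1.37% higher at that p for Tibetan minus Shouguang, 1.91% and 1.51% for Tibetan minus Dwarf Recessive White, and 2.09% and 2.02% for Shouguang minus Dwarf Recessive White. The median difference of the effect was 0.02 for Tibetan minus Shouguang, -0.06 for Tibetan minus Dwarf Recessive White and -0.10 for Shouguang minus Dwarf Recessive White. These medians did not keep their direction. With each array centred on its median signal the first was -0.07, where the median over all genes was -0.10. Without Dwarf Recessive White hypoxia array 2 the others were 0.08 and 0.02.

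The smallest p-values for a difference of the effect were those of TTK, ECT2 and NCAPG for Tibetan minus Shouguang, CENPT, TPX2 and CCNA2 for Tibetan minus Dwarf Recessive White, and SMC2, AURKB and NCAPG for Shouguang minus Dwarf Recessive White. TTK had 9.15 and 9.07 in Tibetan hypoxia against 9.39 and 9.40 in Tibetan normoxia, and 9.38 and 9.44 in Shouguang hypoxia against 9.21 and 9.29 in Shouguang normoxia. It was lower in hypoxia in the Tibetan arrays and higher in the Shouguang arrays, a difference of -0.44 ± 0.23, which became 0.03 when its 3 probe sets were averaged. CENPT differed by -0.50 ± 0.25 between Tibetan and Dwarf Recessive White hearts, and SMC2 by 0.58 ± 0.31 between Shouguang and Dwarf Recessive White hearts, with limma adjusted p-values of 0.9997 and 0.9989.

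Mean levels of most mitotic genes lay highest in Dwarf Recessive White hearts, and a single gene passed the test. Over both conditions, the mean signal was highest in Dwarf Recessive White hearts for 38 of 44 genes, in Tibetan hearts for 4 and in Shouguang hearts for 2. Of all 10276 genes, 32.7% were highest in Tibetan, 34.4% in Shouguang and 32.9% in Dwarf Recessive White hearts. The lowest mean was in Shouguang hearts for 23 mitotic genes, in Tibetan hearts for 18 and in Dwarf Recessive White hearts for 3.

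Shouguang minus Dwarf Recessive White was below 0 for 40 of 44 genes, with a median of -0.18 against 0.01 over all genes. With limma 1 of 44 passed, CENPL, where 1.33% of probe sets did. At an unadjusted p under 0.05, 16 mitotic genes were lower and 0 higher, against 6.64% and 6.53% of all genes. All 4 Shouguang arrays lay below all 4 Dwarf Recessive White arrays for 7 genes (CENPL, CENPF, NCAPG, NCAPD2, NCAPD3, INCENP and KIF11) and above them for 0, against 3.76% and 4.22% of all genes.

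CENPL had 8.36, 8.46, 8.21 and 8.82 on the Shouguang arrays (hypoxia, then normoxia), against 8.91, 9.39, 9.63 and 9.69 on the Dwarf Recessive White arrays. It fell by 0.94 ± 0.19, 1.92-fold lower in Shouguang hearts (4 arrays per breed; limma adjusted p = 0.0340). The call did not hold in 8 of the 12 fits that left out an array, those without Dwarf Recessive White hypoxia 2 or normoxia 1 or 2, Shouguang hypoxia 1 or 2 or normoxia 1, or Tibetan normoxia 1 or 2, with adjusted p-values of 0.0239 to 0.120 over the 12 fits. It did not hold either with no dim filter (limma adjusted p = 0.0541), with no intensity trend (0.109) or with the mean of its probe sets (0.215), and its second probe set differed by -0.04 ± 0.26.

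Next in order of p were CCNA2, NCAPG, CENPF and CCNB2. CCNA2 had 10.68, 10.44, 11.06 and 10.86 in Shouguang hearts against 11.04, 11.32, 11.35 and 11.12 in Dwarf Recessive White hearts, a difference of -0.45 ± 0.10 (limma adjusted p = 0.0629), with 1 Shouguang normoxia array above the lowest Dwarf Recessive White array. NCAPG, a condensin I subunit, had 9.39, 9.26, 9.71 and 9.61 in Shouguang hearts against 9.83, 10.10, 9.92 and 9.82 in Dwarf Recessive White hearts, a difference of -0.43 ± 0.12 (limma adjusted p = 0.106). All Shouguang arrays were below all Dwarf Recessive White arrays, and the second NCAPG probe set gave -0.34 ± 0.24.

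CENPF, a large microtubule-binding protein of the outer kinetochore, had 8.22, 8.68, 8.35 and 8.48 in Shouguang hearts against 8.71, 9.40, 9.10 and 9.54 in Dwarf Recessive White hearts. The difference was -0.76 ± 0.20 (limma adjusted p = 0.107), and the other 3 CENPF probe sets gave 0.17, -0.60 and -0.22. CCNB2 differed by -0.23 ± 0.07 (limma adjusted p = 0.156), with 12.74, 12.66, 12.88 and 12.76 in Shouguang hearts against 12.86, 13.00, 13.08 and 12.99 in Dwarf Recessive White hearts. For CENPF the arrays of the breeds were apart, and for CCNB2 the highest Shouguang array lay just above the lowest Dwarf Recessive White array.

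**Figure D4:**
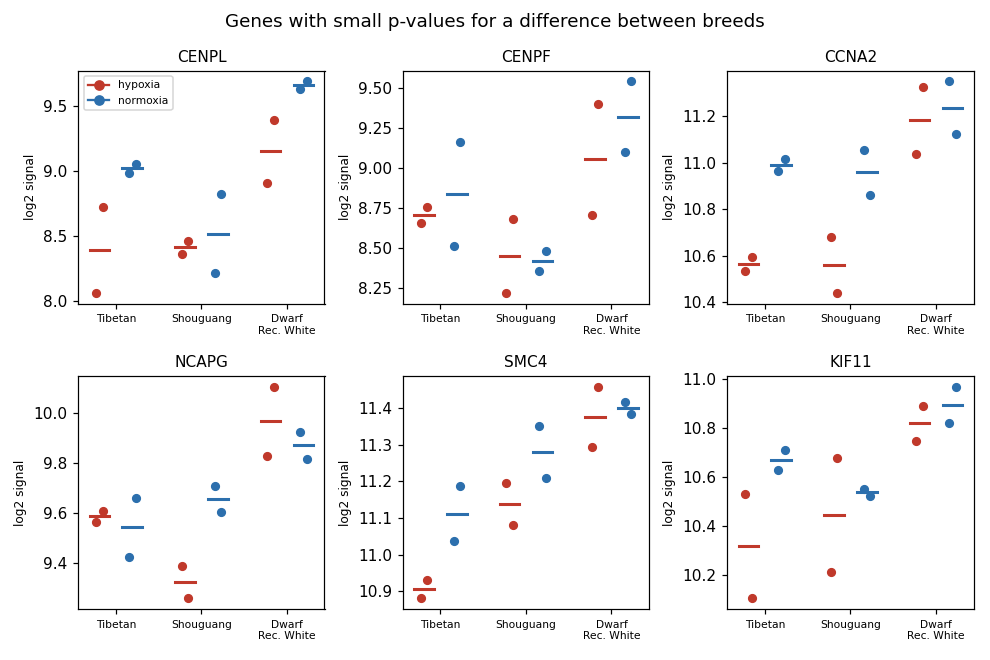
Log2 signal (vertical axis) on each of the 12 arrays for CENPL, CENPF, CCNA2, NCAPG, SMC4 and KIF11, by breed, with hypoxia in red and normoxia in blue; bars are means of 2 arrays. The 4 Dwarf Recessive White arrays of CENPL, at 8.91 to 9.69, lie above the 4 Shouguang arrays, at 8.21 to 8.82.

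Tibetan minus Dwarf Recessive White was below 0 for 39 of 44 genes, with a median of -0.18 against -0.01 over all genes. With limma 0 of 44 passed, where 0.759% of probe sets did, and 11 were lower and 0 higher at an unadjusted p under 0.05, against 6.55% and 6.93% of all genes. All 4 Tibetan arrays lay below all 4 Dwarf Recessive White arrays for CCNA2, NCAPG, SMC4, KIF11 and RACGAP1, which makes 5 genes, and above them for 0, against 4.31% and 4.32% of all genes. Both comparisons with Dwarf Recessive White hearts use the same 4 arrays of that breed.

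SMC4 had 10.88, 10.93, 11.04 and 11.19 in Tibetan hearts against 11.29, 11.46, 11.42 and 11.38 in Dwarf Recessive White hearts, a difference of -0.38 ± 0.09 (limma adjusted p = 0.0709). CCNA2 followed with 10.54, 10.60, 10.96 and 11.01 against the Dwarf Recessive White values given above, a difference of -0.43 ± 0.10 (limma adjusted p = 0.0908). In both genes the highest Tibetan array was below the lowest Dwarf Recessive White array. CENPL differed by -0.70 ± 0.19 (limma adjusted p = 0.125), with -0.16 ± 0.26 at its second probe set, TTK by -0.39 ± 0.12 and the Z-linked SMC2 by -0.49 ± 0.15.

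SMC2 had 11.06, 11.32, 11.42 and 11.34 in Tibetan hearts against 11.20, 12.04, 12.10 and 11.77 in Dwarf Recessive White hearts, where hypoxia array 1 was low. Without that array the difference was -0.70. That array had a W-linked level of 9.47, beside 9.24 to 9.54 on the Tibetan arrays. The other Dwarf Recessive White arrays had 6.62 to 8.64. Without hypoxia array 1, breed and W-linked level therefore cannot be told apart for this Z-linked gene. KIF11 had 10.53, 10.11, 10.63 and 10.71 in Tibetan hearts, 10.21, 10.68, 10.55 and 10.52 in Shouguang hearts and 10.75, 10.89, 10.82 and 10.97 in Dwarf Recessive White hearts. Every array of the first 2 breeds was below every Dwarf Recessive White array, with a difference of -0.36 ± 0.13 in each comparison (limma adjusted p = 0.264 for Tibetan and 0.237 for Shouguang).

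By role, the condensin and chromosome structure genes had the most negative median in both comparisons, -0.29 for Tibetan and -0.26 for Shouguang minus Dwarf Recessive White, with 6 of 6 below 0 in each. The inner kinetochore genes had medians of -0.20 (10 of 10 below 0) and -0.14 (9 of 10), and the kinases and cyclins -0.13 and -0.22 (4 of 4 in each). The checkpoint and outer kinetochore genes had -0.12 (6 of 8) and -0.13 (7 of 8), the spindle motors and organisers -0.18 and -0.15 (4 of 5 in each) and the cytokinesis genes -0.13 and -0.14 (6 of 6 in each). The chromosomal passenger genes had -0.15 (2 of 3) and -0.17 (3 of 3), and the anaphase regulators -0.07 and -0.15 (1 of 2 in each). The condensin and chromosome structure group includes the Z-linked SMC2, and the inner kinetochore group the Z-linked CENPH and CENPK. The differences between roles were not tested.

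The genes above 0 were SPC25, CENPE, AURKB, CDCA3 and TPX2 in the Tibetan and CENPE, CENPM, CDCA3 and TPX2 in the Shouguang comparison. Further probe sets of TPX2 and CDCA3 had the opposite sign. TPX2 was 0.12 ± 0.07 in Tibetan and 0.14 ± 0.07 in Shouguang minus Dwarf Recessive White, while its other probe sets gave -0.33 and -0.20 in the Tibetan and -0.27 and -0.28 in the Shouguang comparison. CDCA3 was 0.15 ± 0.13 and 0.08 ± 0.13 at its first probe set, and another of its probe sets fell by 0.58 ± 0.12 in Shouguang hearts (limma adjusted p = 0.0403). That probe set was not the reading chosen for the gene and is not counted among the 44.

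Between Tibetan and Shouguang hearts the mitotic genes had no common direction. Tibetan minus Shouguang was below 0 for 19 of 44 genes, with a median of 0.03 against -0.01 over all genes. With each array centred on its median signal it was below 0 for 26 of 44, with a median of -0.03. In that setting 6401 of all 10276 genes were below 0, with a median of -0.07. With limma 0 passed, where 0.551% of probe sets did, and 2 were lower (SMC4 and CENPM) and 2 higher (CCNB2 and BUB1B) at an unadjusted p under 0.05, against 7.19% and 6.34% of all genes. All 4 Tibetan arrays lay below all 4 Shouguang arrays for CENPM alone, and above them for CCNB2 and NCAPD3, against 4.03% and 3.79% of all genes.

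The smallest p was that of CCNB2, with 13.01, 12.95, 12.99 and 12.93 in Tibetan hearts against 12.74, 12.66, 12.88 and 12.76 in Shouguang hearts, a difference of 0.21 ± 0.07 (limma adjusted p = 0.201). BUB1B, the checkpoint protein BubR1, had 10.60, 10.75, 10.71 and 10.89 in Tibetan hearts against 10.39, 10.27, 10.76 and 10.42 in Shouguang hearts, a difference of 0.28 ± 0.11 with 1 Shouguang array inside the Tibetan range. CENPM had 8.94, 8.65, 8.77 and 8.95 in Tibetan hearts against 9.21, 9.13, 9.40 and 9.04 in Shouguang hearts, a difference of -0.37 ± 0.16, and SMC4 differed by -0.20 ± 0.09.

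The 3 genes SMC2, CENPH and CENPK lie on the Z chromosome, of which males carry an extra copy, and their signals moved with the W-linked level of an array. On the 6 arrays with the highest W-linked levels, 9.24 to 9.54, the mean of the Z-linked genes relative to their own 12-array means was -0.52 to 0.01. On the other 6 arrays, at 6.62 to 8.9997, it was 0.03 to 0.44. The arrays with high levels were all Tibetan arrays, Shouguang normoxia array 1 and Dwarf Recessive White hypoxia array 1. Breed and W-linked level were thus partly confounded in the breed comparisons. In Shouguang hearts condition and W-linked level were confounded too, with 8.18 and 8.42 in hypoxia against 9.40 and 8.9997 in normoxia. In Dwarf Recessive White hearts they were partly confounded, in the other direction, with 9.47 and 8.46 in hypoxia against 6.62 and 8.64 in normoxia. SMC2 averaged 11.71 in hypoxia against 11.45 in normoxia in Shouguang hearts, and 11.62 against 11.94 in Dwarf Recessive White hearts. Dwarf Recessive White hypoxia array 1 had the lowest mean of the Z-linked genes, -0.52, with a W-linked level of 9.47. The other arrays of its breed had 0.44, 0.41 and 0.24 with W-linked levels of 8.46, 6.62 and 8.64.

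Without the Z-linked genes the counts were 37 of 41 below 0 for the mean hypoxia effect, 36 of 41 for Tibetan and 37 of 41 for Shouguang minus Dwarf Recessive White, with medians of -0.12, -0.18 and -0.17. With the mean W-linked level entered as a covariate, 39 of 44 were below 0 for the mean hypoxia effect (median -0.10), 32 for Tibetan minus Dwarf Recessive White (median -0.10) and 38 for Shouguang minus Dwarf Recessive White (median -0.15). CENPL then no longer passed in the last comparison (limma adjusted p = 0.0966).

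**Figure D5:**
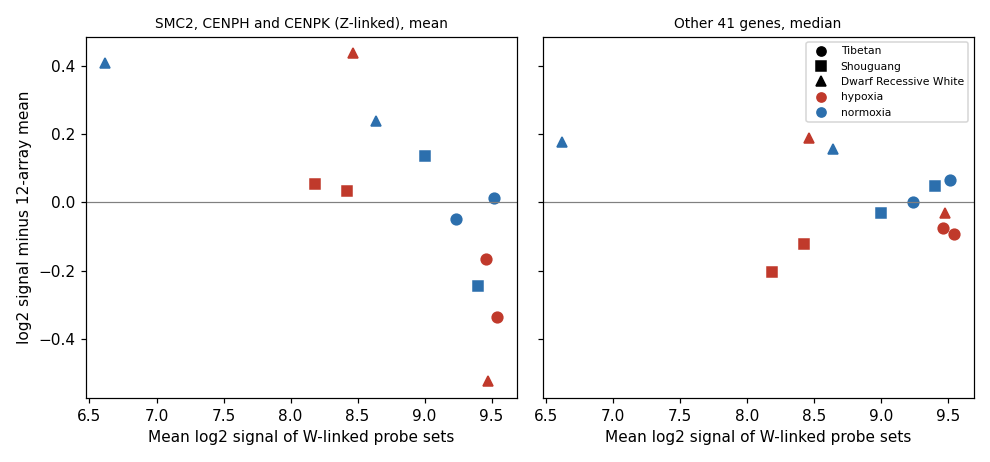
Mean log2 signal of the W-linked probe sets of each array (horizontal axis) against the log2 signal minus the 12-array mean (vertical axis), as the mean of SMC2, CENPH and CENPK on the left and as the median of the other 41 genes on the right. Shapes are breeds, red is hypoxia and blue is normoxia. Dwarf Recessive White hypoxia array 1 is at -0.52 on the left and at -0.03 on the right.

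Markers of other cells were read beside these results, and their part in the results was not tested. Red blood cell genes (5 of 9 listed were named, all above the dim limit) averaged 11.25 to 11.81 on the Tibetan, 11.57 to 11.83 on the Shouguang and 11.90 to 12.27 on the Dwarf Recessive White arrays, so the mean of the list was highest in Dwarf Recessive White hearts, with no overlap. Its members differed. HBE averaged 9.37 and 9.34 in Tibetan hypoxia and normoxia, 9.94 and 10.0035 in Shouguang and 11.51 and 10.23 in Dwarf Recessive White hearts. In the same order, EPB42 averaged 9.96 and 9.63, 9.84 and 9.39, and 10.34 and 9.92. TAL1 averaged 7.07 and 8.23, 7.61 and 7.72, and 8.43 and 8.45. HBE, EPB42 and TAL1 were thus highest in Dwarf Recessive White hearts in both conditions. The alpha globin HBA1 averaged 15.50 and 15.63, 15.58 and 15.60, and 15.43 and 15.54, lowest in Dwarf Recessive White hearts. HBAD was highest in that breed in normoxia only. Leukocyte genes (4 of 4) averaged 8.75 to 8.88 on the Tibetan, 8.47 to 8.68 on the Shouguang and 8.80 to 9.10 on the Dwarf Recessive White arrays. The mean of this list was lower in Shouguang than in Dwarf Recessive White hearts without overlap, but its members differed. In normoxia CD74 averaged 11.21 in Shouguang and 12.09 in Dwarf Recessive White hearts, while PTPRC averaged 6.68 and 6.69 and MARCO 7.73 and 7.57. CSF1R in both conditions, and each member in hypoxia, averaged lower in Shouguang hearts. Epicardial genes (2 of 4 named) averaged 9.77, 9.74 and 9.96 in the same order of breeds, with overlapping arrays.

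Liver and yolk sac genes (4 of 4) had lower means in hypoxia in every breed. They averaged 7.16 and 8.73 in Tibetan hypoxia against 9.32 and 10.13 in Tibetan normoxia, 5.51 and 7.50 in Shouguang hypoxia against 9.76 and 10.53 in Shouguang normoxia, and 5.79 and 6.45 in Dwarf Recessive White hypoxia against 7.77 and 8.44 in Dwarf Recessive White normoxia. The arrays of the conditions were apart in all 3 breeds. Endothelial genes (6 of 6) averaged 10.32 to 10.58 in hypoxia against 10.24 to 10.45 in normoxia, and 10.33 in both conditions in Dwarf Recessive White hearts. Their members differed. KDR and PECAM1 averaged higher in hypoxia in every breed, KDR with 9.27 against 8.63 in Tibetan hearts. CDH5 averaged lower in every breed, with 12.99 against 13.10 in Tibetan hearts. TEK, TIE1 and ERG had no common direction over the breeds. The liver and yolk sac means of 5.51 and 5.79 lay below the dim limit of 6.31. Among these genes, AHSG averaged 3.95 in Shouguang hypoxia and 2.88 in Dwarf Recessive White hypoxia.

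Further cell cycle genes, from lists that hold none of the 44, were read in the same way. Of 60 further mitotic genes, 39 were below 0 in the mean hypoxia effect, with a median of -0.09, and 8 were lower and 0 higher at an unadjusted p under 0.05, where 51.2% of all genes were below 0, 5.11% lower and 4.64% higher. Of 44 DNA replication genes, 35 were below 0, with a median of -0.09, and 6 were lower and 1 higher. Of 28 brakes and transcription regulators of the cell cycle, 17 were below 0, with a median of -0.02, and 2 were lower and 2 higher, 7.14% each and near the share of all genes. With limma 0 genes of the 3 lists passed.

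For the breed levels, 53 of the 60 further mitotic genes were below 0 in Tibetan and 45 in Shouguang minus Dwarf Recessive White, with medians of -0.15 and -0.12. The replication genes had 34 and 26 of 44 below 0, with medians of -0.14 and -0.04, and the brakes and regulators had 12 of 28 in each, with medians of 0.02. Of all genes, 51.6% were below 0 in the Tibetan and 48.7% in the Shouguang comparison. For Tibetan minus Shouguang, 31 of the further mitotic, 34 of the replication and 16 of the regulator genes were below 0, with medians of -0.02, -0.10 and -0.03. There 9 replication genes were lower and 0 higher at an unadjusted p under 0.05, against 7.19% and 6.34% of all genes, and 0 passed with limma.

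In the further mitotic list 2 of 60 genes passed for Shouguang minus Dwarf Recessive White, where 1.33% of probe sets did. In Shouguang hearts CENPQ, an inner kinetochore subunit, fell by 0.91 ± 0.17 (limma adjusted p = 0.0186), and KIF20B, a kinesin of late cytokinesis, fell by 0.72 ± 0.15 (limma adjusted p = 0.0421), both against Dwarf Recessive White hearts. For Tibetan minus Dwarf Recessive White, where 0.759% of probe sets passed, 1 of 44 replication genes, 2 of 28 regulators and 1 of 60 further mitotic genes did. For Tibetan minus Shouguang 1 of 60 further mitotic genes passed, where 0.551% of probe sets did. In Tibetan hearts against Dwarf Recessive White hearts CHAF1B, a histone chaperone subunit, fell by 0.54 ± 0.11 (limma adjusted p = 0.0415) and LIN52, of the DREAM complex, by 1.02 ± 0.18 (limma adjusted p = 0.0273), while CCNG2, a cyclin linked to cell cycle arrest, rose by 0.59 ± 0.10 (limma adjusted p = 0.0137). KIF20B had 4 tested probe sets and LIN52 and CCNG2 had 2 each, and only those with the highest mean signal are given here. For these genes too, each difference is that of a single probe set.

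NUF2, the partner of NDC80 in the microtubule-binding complex and not among the 44, had low signals in Tibetan hearts at the probe set read. It had 9.11, 9.83, 10.68 and 10.51 in Tibetan hearts, against 11.91, 12.11, 12.25 and 12.15 in Shouguang hearts and 11.93, 12.17, 12.03 and 12.16 in Dwarf Recessive White hearts. All 4 Tibetan arrays lay far below all arrays of the other breeds, and NUF2 fell by 2.07 ± 0.14 against Shouguang hearts (limma adjusted p = 3.9e-05) and fell by 2.04 ± 0.14 against Dwarf Recessive White hearts (limma adjusted p = 1.6e-05). Of its complex partners, Tibetan minus Shouguang was 0.03 ± 0.15 for NDC80 and 0.28 ± 0.35 for SPC25, and Tibetan minus Dwarf Recessive White was -0.10 ± 0.15 and 0.21 ± 0.35. Within Tibetan hearts NUF2 was lower on both hypoxia arrays than on both normoxia arrays, with an effect of -1.12 ± 0.20 that did not pass (limma adjusted p = 0.405). NUF2 had 2 tested probe sets, and only that with the highest mean signal is given here. The differences between breeds are thus those of a single probe set.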

How the data were processed

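The authors deposited a linear signal intensity for each probe set, computed with GCOS (version not stated) per the submitters' processing notes. The mean of every array was 500.1 once the top and bottom 2% of signals were dropped, which shows that the deposited arrays share a common scale. From the 38535 probe sets the 96 controls were removed, signals were put on the log2 scale with no further normalization, and those under the 40th percentile of mean log2 signal (79.5 on the linear scale) were dropped, leaving 23063 to test.

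Gene names came from the platform's symbol table, which gives a single symbol for 27178, several for 177 and none for 11180; only the first kind was used. A gene table of the GRCg7b assembly gave older symbols, chromosomes and neighbours. Of the 49 genes, 42 matched by symbol, 2 by an older symbol and 5 were not matched; where a gene had several probe sets, the one with the highest mean signal over the 12 arrays was read.

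The model, fitted with limma 3.58.1 under R 4.3.3, had 6 group means, and variances were moderated along the mean signal (6 residual degrees of freedom, 6.16 from the prior). It gave 10 contrasts: the hypoxia effect in each breed, its mean, its 3 differences between breeds and the 3 breed differences averaged over both conditions. All tests were two-sided with Benjamini-Hochberg adjustment across the 23063 probe sets. Errors are limma standard errors (SE), and the small number of arrays limits the precision. The median SE of a probe set was 0.26 within a breed, 0.15 for the mean hypoxia effect, 0.37 between the effects of a pair of breeds and 0.19 between breed levels. The procedure was tested on simulated data.

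Arrays were called apart where every array of a group lay on the same side of every array of the other, within each breed for the mean hypoxia effect. The alternatives were no or a stricter dim filter (60th percentile), quantile normalization, median centring, an offset of 32, no intensity trend, weighted arrays, a replicate block, the mean W-linked level (21 probe sets) as a covariate, the mean of a gene's probe sets, fits with only the arrays compared, and leaving out each array. Counts below 0 and the readings without Z-linked genes were added with the data in view. The 49 genes, the other lists and the marker lists were chosen with earlier results of these data known.

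Values on every array are given by rule for genes that passed, for the 5 smallest p-values of a contrast where fewer passed, and for the genes of each role with the highest signal, the largest mean hypoxia effect or the largest breed difference; some of these are given by their effect alone. No protein or promoter sequence is shown.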

Additional observations from a re-analysis of the deposited data

Results flagged for a closer look

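The median of the 44 genes relative to their own 12-array means was -0.0515 on Dwarf Recessive White hypoxia array 1, apart from the other 3 arrays of its breed at 0.19, 0.20 and 0.16. The gap to the nearest of them took up most of the range of the 4 arrays. Among 4 arrays of the same condition, chance alone sets an array apart in this way in about 1 in 20 groups. These 4 arrays came from both conditions, so that rate does not apply directly to them. On this array the Z-linked genes SMC2, CENPH and CENPK averaged -0.52 relative to their own means, and the median of the other 41 genes was -0.03.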

How the results depend on the processing

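For the mean hypoxia effect, its Tibetan and its Shouguang values, no alternative or left-out array changed the number of genes that passed, which was 0, or turned the median above 0; leaving out an array gave 35 to 42, 27 to 37 and 31 to 38 of 44 genes below 0. In Dwarf Recessive White hearts leaving out an array gave 20 to 38 genes below 0 and medians of -0.1945 to 0.0573. The median difference of the effect moved to -0.0724 for Tibetan minus Shouguang with median centring, where the median over all genes was -0.0970. Leaving out an array gave -0.2125 to 0.0752 for Tibetan and -0.1946 to 0.0169 for Shouguang minus Dwarf Recessive White.

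For Shouguang minus Dwarf Recessive White, 1 gene passed. The count was 0 with no dim filter, with no intensity trend, with the W-linked covariate and with the mean of a gene's probe sets. It was 2 with the stricter filter (CENPL and CCNA2), where 346 of 15376 probe sets passed. For Tibetan minus Dwarf Recessive White the W-linked covariate moved the median to -0.0958. Of single genes, the difference of the effect turned to 0.0333 for TTK (Tibetan minus Shouguang, mean of its probe sets) and to -0.0941 for SMC2 (Shouguang minus Dwarf Recessive White, W-linked covariate); the causes were not tested.

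Arrays share replicate numbers across groups. Same-numbered arrays deviated together weakly, with a positive r in all 15 pairs (0.06 to 0.20, median 0.10). The numbers were not taken as a pairing in the model, and whether they mark a shared source of variation was not tested. With the replicate number as a block, 3 genes passed for Tibetan minus Dwarf Recessive White (SMC4, CCNA2 and CENPL). For Shouguang minus Dwarf Recessive White 3 passed (CENPL, CCNA2 and CENPF), and the other counts were 0. Calls over all 23063 probe sets rose as well with this block. They went from 175 to 579 for Tibetan and from 306 to 711 for Shouguang minus Dwarf Recessive White. Fits with only the arrays compared do not apply to the mean over breeds, which uses all 12. All 44 genes were above the dim limit on every array, and the dimmest, SPC25, had the widest spread within groups (SD 0.56, against a median of 0.17) and was left out by the stricter filter, which kept 43.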
